A study of Mus musculus with 12 samples.

Results

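Ephx1, Ephx2, Cyp4b1 and Por are 4 of the 21887 protein-coding genes around which H3K27ac was mapped by ChIP-seq in hearts of newborn mice. The mark, an acetyl group on histone H3, is found on promoters and enhancers in use. Peaks were taken in a window that reached 10 kb past both ends of the gene (mm10). The 4 genes were grouped by function and chosen from earlier results on the same comparison of genotypes in these hearts, namely the length of called peaks at each gene. Differences between genotypes at them are therefore given as a description, with no test. Wild-type hearts (WT, n = 3, hearts 1, 3 and 4) and hearts with a cardiomyocyte-specific loss of both RXRa and RXRb (RXRab-/-, called edKO, n = 3, hearts 1, 3 and 6) were collected at postnatal day 0. The series concerns the metabolic maturation of newborn hearts and γ-linolenic acid in maternal milk. Each heart is its own replicate, per the labels, and the labels used here give neither the driver of the deletion nor the strain. Whole hearts also hold fibroblasts, endothelial and other cells, which keep both receptors, so fewer cells of a type and less mark per cell cannot be told apart.

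The 4 enzymes take part in the oxidation of lipids and foreign molecules and in the removal of epoxides. Cytochrome P450 enzymes insert oxygen into fatty acids, retinoids, sterols and drugs, and the microsomal ones receive their electrons from NADPH through a single flavoprotein, P450 oxidoreductase, the product of Por. Some P450s turn arachidonic and linoleic acid into epoxides, and epoxide hydrolases open these into diols. Ephx2 encodes the soluble epoxide hydrolase, the main enzyme for fatty acid epoxides, which are vasoactive in heart and vessels. Ephx1 encodes the microsomal epoxide hydrolase, best known for detoxifying foreign epoxides, and Cyp4b1 a P450 of the family that hydroxylates fatty acids near their end. RXRs, the receptors deleted here, bind DNA together with PPARs, receptors for fatty acids, among other partners.

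Ephx1, Cyp4b1 and Por have an entry among the RefSeq promoters (GRCm38.p6), and the bases before their starts are shown because the start of Por was marked in every heart and that of Cyp4b1 in none. Each run holds the 250 bases before the annotated start, 5′ to 3′ on the strand of the gene, with CpG dinucleotides in capitals; the last C of the Por run belongs to a CpG whose G is the start base. The Ephx1 run is on the minus strand at chr1:181017570-181017819, the Cyp4b1 run on the minus strand at chr4:115647722-115647971, and the Por run on the plus strand at chr5:135688895-135689144.
Ephx1: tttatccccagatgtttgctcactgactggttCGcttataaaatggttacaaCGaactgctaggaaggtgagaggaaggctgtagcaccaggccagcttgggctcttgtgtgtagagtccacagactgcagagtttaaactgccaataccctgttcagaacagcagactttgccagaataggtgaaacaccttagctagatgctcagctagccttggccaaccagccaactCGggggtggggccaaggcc
Cyp4b1: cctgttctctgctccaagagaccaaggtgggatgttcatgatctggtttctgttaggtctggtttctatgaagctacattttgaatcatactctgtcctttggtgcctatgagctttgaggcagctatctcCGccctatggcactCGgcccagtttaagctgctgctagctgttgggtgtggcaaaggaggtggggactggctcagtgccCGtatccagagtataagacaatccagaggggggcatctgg
Por: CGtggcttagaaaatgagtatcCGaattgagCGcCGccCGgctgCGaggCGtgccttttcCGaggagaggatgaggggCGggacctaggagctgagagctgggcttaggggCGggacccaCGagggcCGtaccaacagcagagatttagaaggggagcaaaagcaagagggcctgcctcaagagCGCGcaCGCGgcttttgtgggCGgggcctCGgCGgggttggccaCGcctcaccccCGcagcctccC

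In the promoter window of 300 bases, which adds the 50 bases from the start on, Por held 27 CpGs, against 5 at Ephx1 and 5 at Cyp4b1. The median over 21263 promoter windows of protein-coding genes was 13. The Por window was touched by a called region in all 6 hearts, covering 300, 300 and 174 of its bases in WT hearts, against 300, 202 and 300 in edKO hearts. The Cyp4b1 window was touched in no heart. The Ephx1 window was touched in WT 1 (92 bases) and by 1 base in edKO 6, and the called regions of the other 4 hearts began just inside the gene or later. Over all windows, 49.7% were touched in all 6 hearts and 42.8% in none. Of the 4394 windows with 27 or more CpGs, 85.2% were touched in all hearts, and of the 6875 with 5 or fewer, 7.46%, with 87.2% of the latter touched in none. Por and Cyp4b1 each lay with the majority of their class.

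Short motifs were searched on both strands of these 3 windows, as exact letters, with positions counted from the start base as 0. The GC box GGGCGG occurred 4 times at Por (at -217, -175, -142 and -48), 2 times at Ephx1 (at 1 and 16) and 1 time at Cyp4b1 (at -120), and in 46.2% of all windows. Ephx1 held CCAAT at -108 (38.2% of windows) and TATAAA at -214 (12.6%). The E-box CANNTG was found at -242 and 32 in Ephx1, at -7 and 3 in Cyp4b1 and not in Por (69.0% of windows). None of the 3 windows held the nuclear receptor half-site AGGTCA (14.7% of windows), its direct repeat AGGNCANAGGNCA (0.353%), the antioxidant response core TGACNNNGC (13.0%) or CTANNNNTAG (3.47%). No match overlapped another. These are matches of letters, and the sequences of the regions inside the genes were not analysed here.

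The lists held 57976, 62882 and 66325 distinct called regions in WT 1, 3 and 4. Those of edKO 1, 3 and 6 held 47971, 48274 and 67706. The called regions spanned 67.4, 68.3 and 59.1 Mb in the WT lists, and 66.6, 47.9 and 62.6 Mb in the edKO lists. The lists hold called peaks and no reads, so the length covered by called regions was compared. The depth of reads behind each list is unknown, and covered length can depend on it. The median width of a region ran from 533 bp (WT 4) to 1011 bp (edKO 1). A region missing from a list may still carry some of the mark. All 10 cardiomyocyte marker loci had enough covered length to be tested, with a sum of 182855 to 190211 bp in WT and 145238 to 192404 bp in edKO hearts. Among other cell types, the summed length was 34979 to 62125 bp in WT and 45110 to 50230 bp in edKO for 10 fibroblast genes, and 93761 to 121729 against 81253 to 125244 bp for 10 endothelial genes. It was 39808 to 43122 against 28512 to 45450 bp for 8 smooth muscle and pericyte genes. For 9 epicardial genes it was 17954 to 27083 against 18777 to 25054 bp. Of the 8 leukocyte and 8 erythroid genes, 5 each had no called region in any heart, and their sums were 7474 to 7768 against 6605 to 7955 bp and 3896 to 5323 against 2623 to 4770 bp. In these 7 lists the sums of the genotypes overlapped and no gene passed the test, and their part in the results below was not tested. The Xist gene body was marked in 1 heart of each genotype, WT 1 and edKO 6.

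Less chromatin was called as marked in edKO hearts at Ephx2, Cyp4b1 and Por, while the genotypes overlapped at Ephx1. Covered length at Ephx2 was 3309 ± 414 bp in WT and 993 ± 202 bp in edKO (mean ± SD, n = 3 per genotype), at Por 8449 ± 928 and 5686 ± 928 bp, at Cyp4b1 1335 ± 66.5 and 706 ± 159 bp, and at Ephx1 2766 ± 425 and 2702 ± 427 bp. At Ephx2, Por and Cyp4b1 the difference lay mostly in regions inside the gene. The region at the higher-coordinate end of Ephx2, a gene whose strand is not given here, was called in every heart. So was the one at the start of Por.

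**Figure D1:**
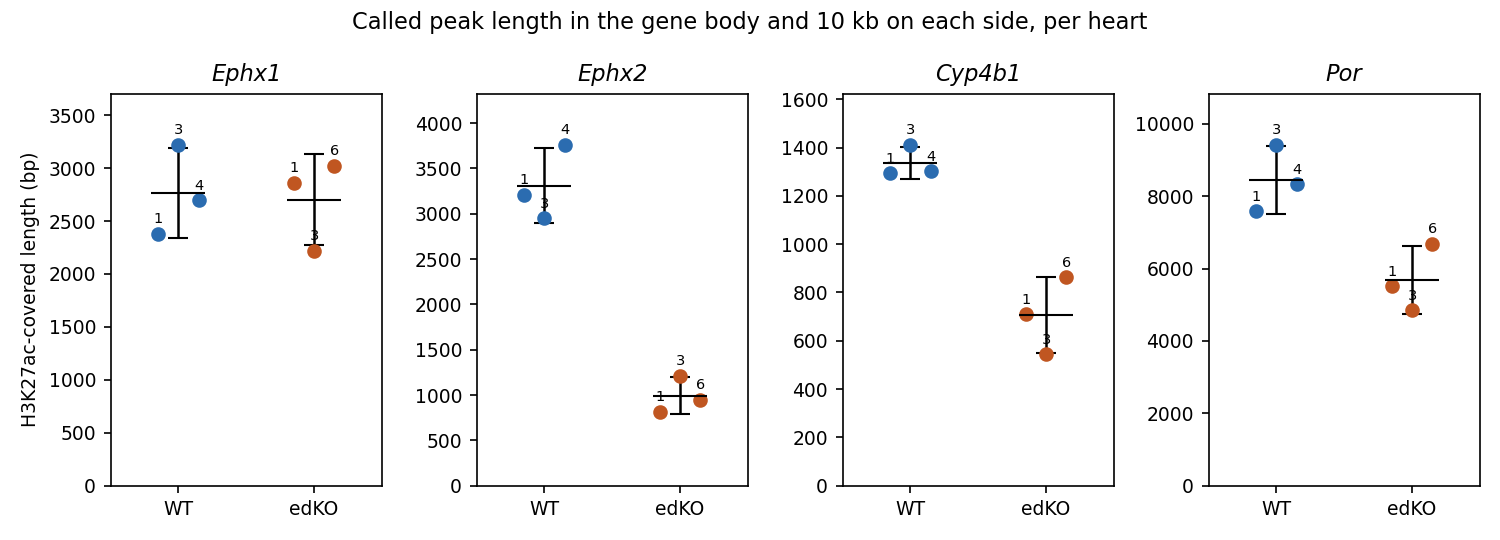
Covered length in bp (vertical axis, from 0, scaled per gene) in the window of each gene, with 1 point per heart labelled by its number, and the mean with SD as a bar (n = 3 per genotype). The edKO hearts lie below the WT hearts at Ephx2, Cyp4b1 and Por, and the genotypes overlap at Ephx1.

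At all 3 of these genes every edKO heart lay below every WT heart, and at Ephx1 the genotypes overlapped. The same held after a pseudocount of 200 bp, log2 transformation and centring per heart, the scale of all log2 differences here. Over the 14317 loci tested, the 3 edKO hearts were all lower than the WT hearts at 5.78% and all higher at 7.12%, and nothing is read from the 3 of 4, since this contrast chose the genes. In the fit with limma over all loci, 15 loci (0.105%) were lower in edKO at an adjusted p of 0.05 and 0 (0%) higher, with 662 lower and 284 higher at an unadjusted p of 0.05. The count of 15 ran from 0 (without WT 3) to 9 (without edKO 6) when 1 heart was left out.

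Per unit of window length, Por had the highest share in WT hearts, with 9.91 ± 1.09% of its window covered. Ephx1 (5.76 ± 0.89%) and Ephx2 (5.50 ± 0.69%) did not differ beyond their spread, and Cyp4b1 was the least covered (3.10 ± 0.15%). In edKO hearts Por (6.67 ± 1.09%) lay above Ephx1 (5.63 ± 0.89%) in each of the 3 hearts, although the highest Ephx1 heart (6.30%) lay above the lowest Por heart. The Por window counts the region at the start of the neighbouring gene Tmem120a (1345, 1158 and 1584 bp in edKO 1, 3 and 6). That region lies outside the Por body. Ephx2 (1.65 ± 0.34%) and Cyp4b1 (1.64 ± 0.37%) did not differ beyond their spread in edKO hearts. Inside the gene bodies alone the order of the means in WT hearts was the same, while in edKO hearts Ephx1 lay above Por. In WT hearts 10.9 ± 1.35% of the Por body and 9.82 ± 1.59% of the Ephx1 body were covered. Por and Ephx1 were thus within each other's spread, although Por was higher in each of the 3 hearts. Ephx2 had 8.14 ± 1.03% and Cyp4b1 2.43 ± 0.79%. In edKO hearts the body values were 6.62 ± 1.10% for Por, 9.65 ± 1.52% for Ephx1 and 2.45 ± 0.48% for Ephx2, and the Cyp4b1 body was at 0 in all 3 hearts.

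The merged peaks of the 6 lists gave 22 regions in the 4 windows. Of these, 7 were called in all 6 hearts (35.8% of the 79241 merged regions in the genome were), 2 in all WT and no edKO heart (1.08% in the genome) and 0 in all edKO and no WT heart (0.0707%). A further 7 were called in a single heart, for which no share in the genome is given, so nothing is read from that count. The 2 regions called in all WT and no edKO heart lay inside Ephx2 and inside Cyp4b1. Partial calls went both ways at Ephx1, Cyp4b1 and Por. Each of these genes had regions seen only in WT lists, in some of the hearts. Each also had a region seen in the edKO 6 list alone, of 325 bp at Ephx1, 327 bp at Cyp4b1 and 332 bp at Por. No share in the genome is given for either kind, so no direction is read from them.

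**Figure D2:**
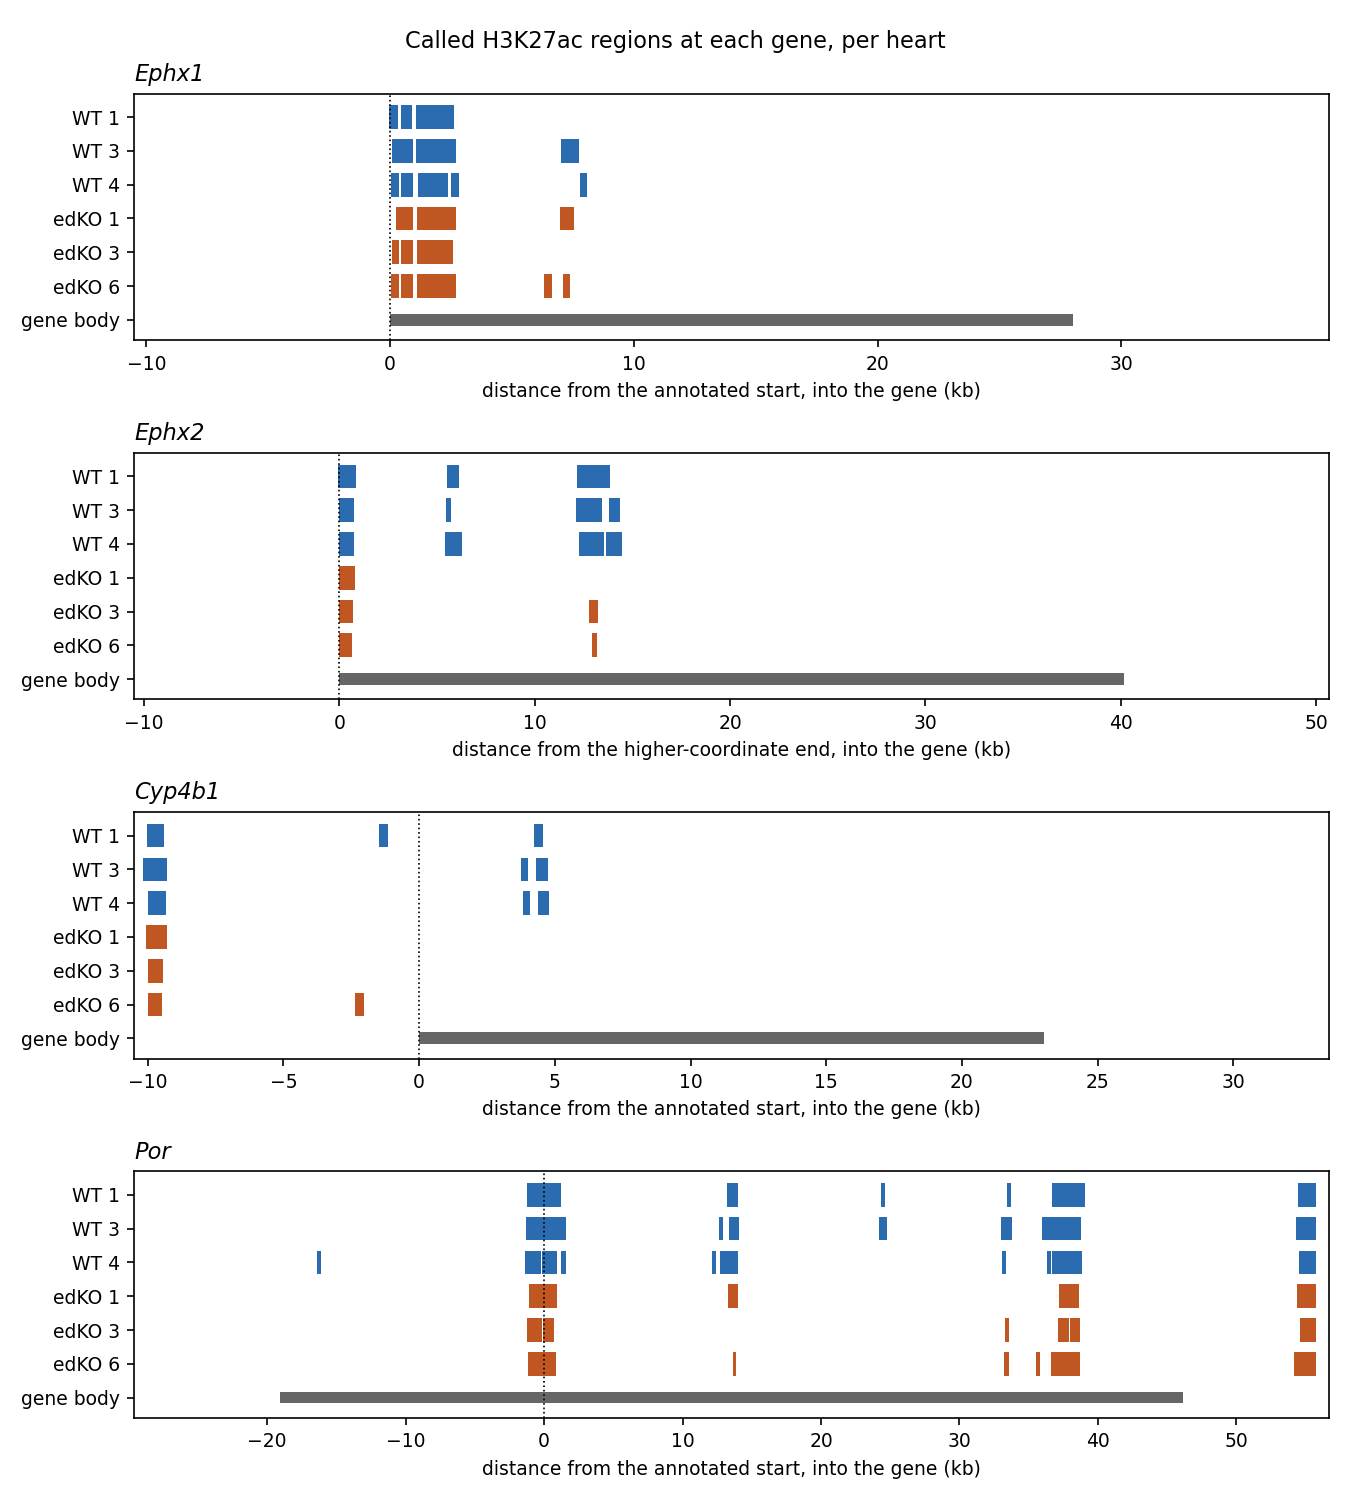
Called H3K27ac regions (bars) per heart at each gene, against the distance in kb from the annotated start, or for Ephx2 from the end of the gene with the higher coordinate, with the gene body in grey. Both Ephx1 regions in the first 3 kb appear in all hearts, the inner regions of Ephx2 and Cyp4b1 are short or missing in edKO hearts, and the widest inner region of Por is shorter there.

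Ephx2, the soluble epoxide hydrolase gene, lies on chromosome 14 (66084372 to 66124522). It had 3209, 2954 and 3763 bp of called peaks in WT 1, 3 and 4, and 817, 1213 and 948 bp in edKO 1, 3 and 6. The lowest WT heart thus had more covered length than the highest edKO heart. The log2 difference was -1.48 (SE 0.24), and 77 of the 14317 loci had a lower one.

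The widest Ephx2 region in WT hearts was inside the gene (66110047 to 66112395), 12.1 to 14.5 kb from the end with the higher coordinate. It was covered over 1705, 1862 and 2067 bp in WT 1, 3 and 4 but 0, 470 and 283 bp in edKO 1, 3 and 6. In WT hearts its highest peak stood above 75.7%, 74.4% and 82.6% of the regions of the same list by the authors' fold enrichment, and in edKO 3 and 6 above 25.7% and 19.2%. These percentiles rank a region within 1 list and are not a measure of change between lists of different length.

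A second inner region, 5.4 to 6.3 kb from that end (66118225 to 66119115), was covered over 595, 289 and 891 bp in WT hearts and was called in no edKO heart. In contrast, the region at the end itself (66123659 to 66124567) was called in every heart. It covered 909, 803 and 805 bp in WT hearts versus 817, 743 and 665 bp in edKO, so that edKO 1 lay among the WT hearts. It was the highest region of the locus in each list, above 89.4%, 90.0% and 91.2% of regions in the WT lists and 78.7%, 81.4% and 86.4% in the edKO lists. All called length in the window was in or next to Ephx2, and neither of the neighbours in reach, Adam2 and Chrna2, added a region of its own to it.

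Ephx1, the microsomal epoxide hydrolase gene, lies on chromosome 1 (180989556 to 181017569) and had 2380, 3222 and 2697 bp in the WT hearts. In the edKO hearts it had 2864, 2218 and 3025 bp. The genotypes overlapped, with edKO 3 lowest and WT 3 highest, and the log2 difference was 0.05 (SE 0.13). Leaving out WT 1 turned it to -0.05.

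Both regions of Ephx1 that were called in all hearts lay in the first 3 kb of the gene. The one 1.1 to 2.8 kb into the gene (181014736 to 181016499) covered 1540, 1613 and 1567 bp in WT hearts versus 1614, 1464 and 1628 bp in edKO, and its genotypes overlapped. The one nearest the start (181016616 to 181017611) reached the start base in WT 1 alone. It covered 840, 871 and 836 bp in WT hearts versus 678, 754 and 787 bp in edKO, slightly less in each edKO heart. Further regions 6.3 to 8.1 kb into the gene were called in some hearts of either genotype. No protein-coding gene other than Ephx1 lies in its window.

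Cyp4b1, the fatty acid hydroxylase gene, lies on chromosome 4 (115624698 to 115647721) and had 1293, 1412 and 1301 bp in the WT hearts. In the edKO hearts it had 711, 545 and 862 bp, all below the WT hearts, and the log2 difference was -0.69 (SE 0.16). Inside the gene, a region 4.2 to 4.8 kb from the start (115642953 to 115643502) covered 351, 427 and 386 bp in the WT hearts. It was called in no edKO heart. A neighbouring one 3.8 to 4.1 kb from the start was called in WT 3 (258 bp) and WT 4 (253 bp) alone.

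These inner Cyp4b1 regions were among the weaker ones of their lists, none standing above more than 23.0% of regions by fold enrichment. With each list limited to its 80179 entries of lowest p-value, the length of the shortest list, the inner regions were gone from the WT hearts too. The locus then had 609, 727 and 662 bp in WT hearts versus 711, 545 and 535 bp in edKO, with overlapping genotypes and a log2 difference of -0.10 (SE 0.23). With entries of −log10 q of 5 or more alone, it had 609, 727 and 662 bp in WT hearts versus 711, 0 and 535 bp in edKO. The genotypes then overlapped too, and edKO 3 was the one heart at 0 (log2 difference -0.69, SE 0.56). What stayed, except in edKO 3 with the stricter entries, was a region 9.3 to 10.2 kb before the start (115656995 to 115657888). In the full lists it was called in every heart, and it reached past the edge of the window. Inside the window it covered 609, 727 and 662 bp in WT hearts versus 711, 545 and 535 bp in edKO. The neighbouring P450 gene Cyp4a32 had no called region in its own window in any heart.

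Por, the electron donor of the microsomal P450s, lies on chromosome 5 (135670040 to 135735326), and its promoter entry starts at 135689145. Its covered length was 7580, 9427 and 8340 bp in WT 1, 3 and 4. It was 5510, 4858 and 6689 bp in edKO 1, 3 and 6. No edKO heart reached the lowest WT heart, and edKO 6 came nearest. The log2 difference was -0.48 (SE 0.13). By fold enrichment, the highest peak of the region around the start stood above 88.7%, 88.2% and 94.4% of regions in the WT lists and above 84.3%, 88.6% and 88.7% in the edKO lists.

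The region around the Por start (135687783 to 135690705) was called in all hearts and was wider in the WT hearts. It covered 2490, 2865 and 2496 bp there and 2021, 1880 and 1996 bp in edKO. The widest inner region, 36.0 to 39.1 kb into the gene (135725121 to 135728211), covered 2355, 2814 and 2471 bp in WT hearts versus 1430, 1539 and 2139 bp in edKO. Both thus had edKO hearts below all WT hearts while being called in every heart.

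The Por region 12.7 to 14.1 kb into the gene (135701803 to 135703206) covered 802, 1017 and 1363 bp in WT. In edKO hearts it covered 714, 0 and 278 bp. A region at 24.2 to 24.7 kb was called in WT 1 (319 bp) and WT 3 (555 bp) alone. It was among the weakest of those lists, above 9.75% and 3.70% of regions by fold enrichment. The region at 33.0 to 33.8 kb (265, 742 and 269 bp in WT hearts versus 0, 281 and 360 bp in edKO) had overlapping genotypes. Part of the Por window belongs to Tmem120a, a membrane protein gene that lies next to it on the minus strand. The region at the start of Tmem120a (135743333 to 135744916) covered 1349, 1434 and 1185 bp in WT hearts versus 1345, 1158 and 1584 bp in edKO, with no separation. The Tmem120a window, which shares its regions with that of Por, had a log2 difference of -0.20 (SE 0.14), and WT and edKO hearts overlapped there. Counted inside the Por body alone, covered length was 7126 ± 881 bp in WT and 4323 ± 716 bp in edKO (n = 3 each).

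**Figure D3:**
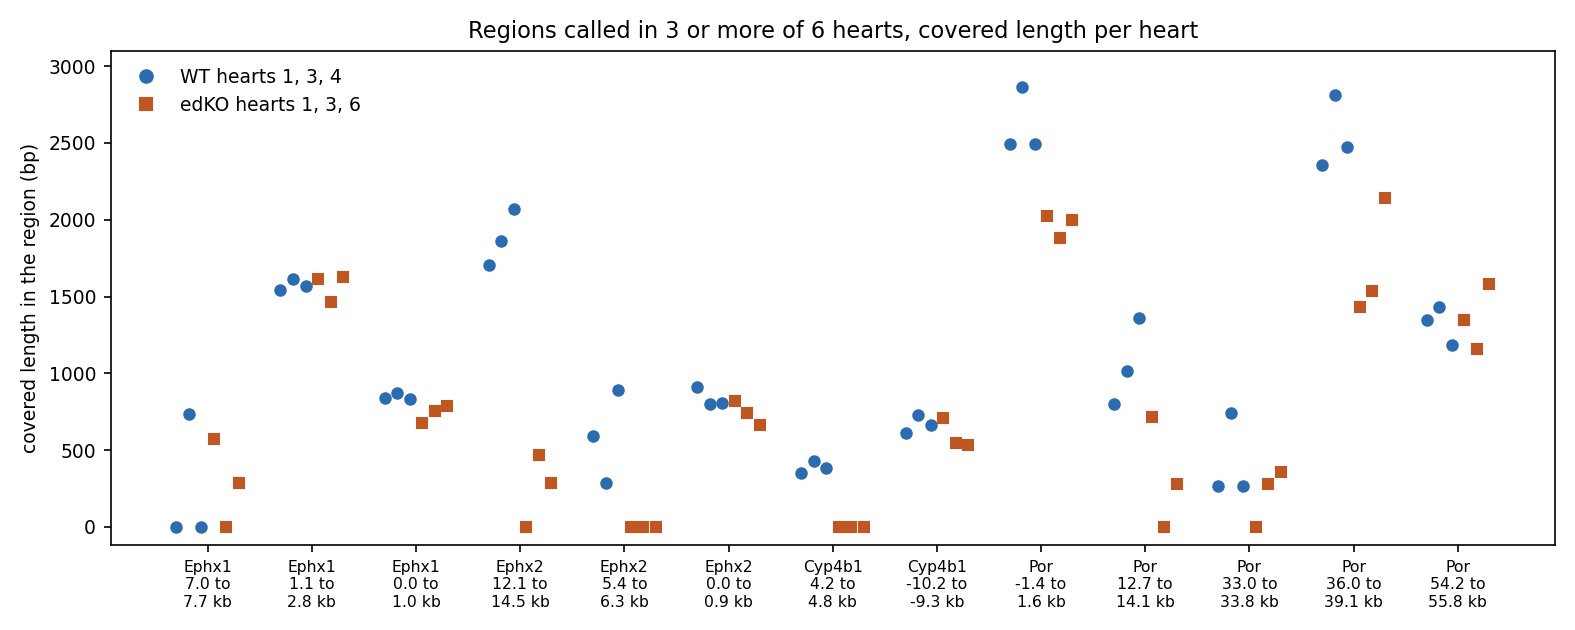
Covered length in bp (vertical axis) within each region called in 3 or more of the 6 hearts, with WT hearts as circles and edKO hearts as squares, ordered by gene and labelled with the distance in kb as in the map of regions. The edKO hearts lie below all WT hearts at the Ephx2 regions at 12.1 to 14.5 and 5.4 to 6.3 kb, the Cyp4b1 region at 4.2 to 4.8 kb, the Por regions at -1.4 to 1.6, 12.7 to 14.1 and 36.0 to 39.1 kb and the Ephx1 region nearest the start, and overlap with them at the others. Lengths are as called and not centred per heart. The share of regions in the genome that separate in this way is not given, and this contrast chose the genes, so nothing is read from the separation.

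The loci with the most similar pattern over the 6 hearts were sought for each gene by the root mean square difference of the centred log2 values, after the mean of each locus was subtracted. With 14317 loci and 6 hearts, close matches are found for any pattern, and none is read as shared control. For Ephx2 they were Ect2l (0.13), Cpt2, the inner carnitine palmitoyltransferase gene of fatty acid import (0.24), and Bub1b, a spindle checkpoint kinase gene (0.24). The Ephx2 pattern itself had a root mean square of 0.80. Ect2l had 4908, 4483 and 4464 bp in WT hearts versus 1074, 1628 and 1242 bp in edKO, in the same order among the edKO hearts as Ephx2. For Por they were the lipid droplet gene Cidea (0.06), the G protein gamma gene Gng7 (0.08) and Gm30679 (0.08), against 0.27 for Por itself. For Cyp4b1 they were Rif1, a replication timing factor gene (0.07), the cell adhesion gene Ncam1 (0.10) and Pcolce2, a procollagen processing enhancer gene (0.10), against 0.36. For Ephx1, with 0.12, they were Peli2 (0.03), Cabyr (0.03) and Gpsm1 (0.03).

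The genes around these enzymes were taken from 7 lists by function, and none of the 97 tested members of 158 passed the limma threshold over all loci in either direction (0.105% and 0% of all loci did). In either direction, 5 (5.15%) had an unadjusted p under 0.05, against 6.61% of all loci. The 3 edKO hearts were all lower than the WT hearts at 3.09% of the 97 and all higher at 7.22%, near or under the shares of 5.78% and 7.12% over all loci. Their median log2 difference was 0.03, as was that of all loci.

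**Figure D4:**
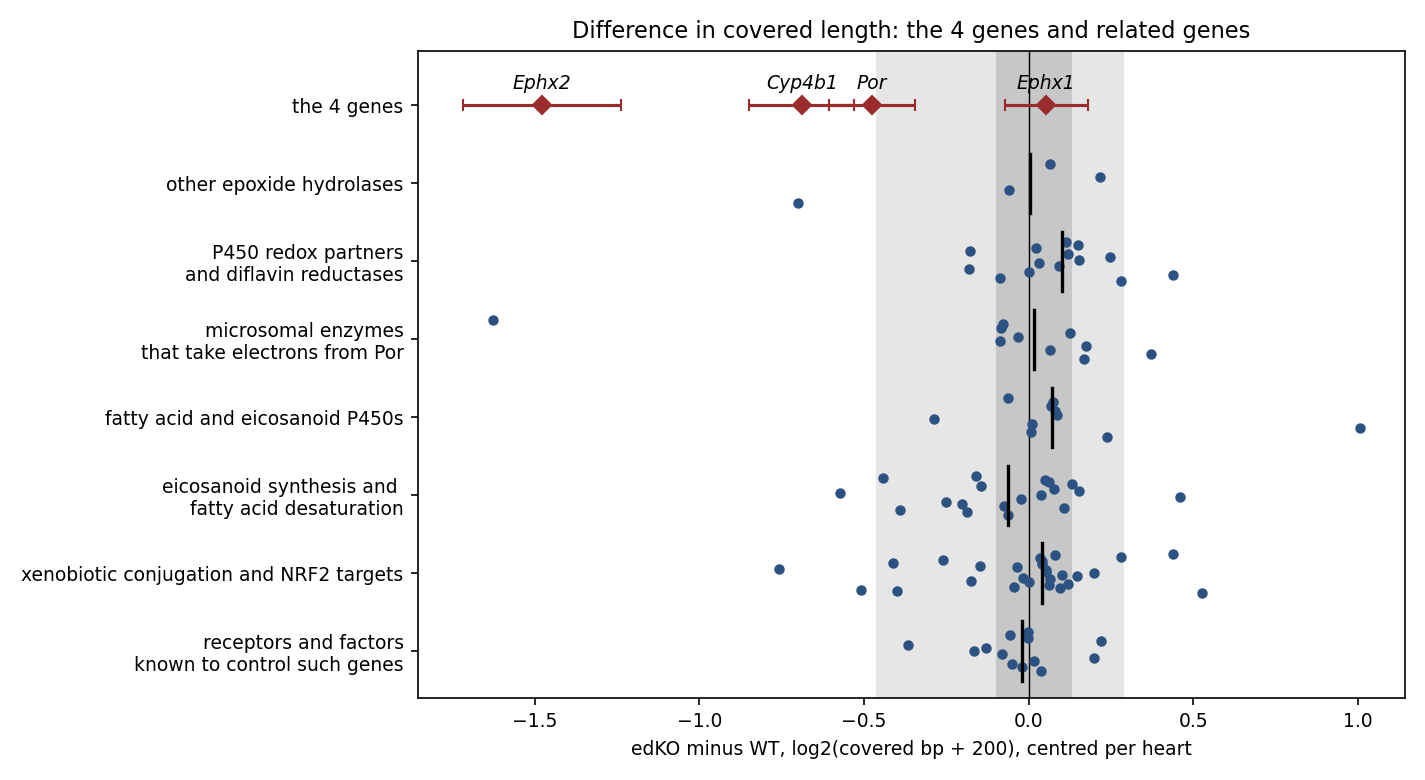
Difference edKO minus WT in log2(covered bp + 200), centred per heart (horizontal axis), for the 4 genes (diamonds, bars are 1 SE), and for the tested genes of 7 related lists (1 point per gene, black line at the median). Dark and light grey bands hold the middle 50% and 90% of 14317 loci. Ephx2 at -1.48, Cyp4b1 at -0.69 and Por at -0.48 lie below the bands, Ephx1 at 0.05 within them, and the list medians lie between -0.06 and 0.10.

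Among the other epoxide hydrolases and related genes (4 tested, median 0.00), Ephx3 had 1120, 782 and 691 bp in WT hearts versus 270, 362 and 653 bp in edKO, with the genotypes apart but a large error (log2 difference -0.70, SE 0.34, limma adjusted p = 0.792). Ephx4 was at -0.06 (SE 0.15). Mest, an imprinted gene of the same fold, was at 0.07 (SE 0.10), and Lta4h, the leukotriene A4 hydrolase gene, at 0.22 (SE 0.19). No difference between these genes and Ephx2 was tested.

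The redox partners of P450s and reductases related to Por (14 tested, median 0.10, 3 below 0) ran from Cyb5r4 (-0.18, SE 0.20) and Nos2 (-0.18, SE 0.18) to Cyb5a, cytochrome b5 (0.28, SE 0.14), and Cyb5r1, a cytochrome b5 reductase gene (0.44, SE 0.10, limma adjusted p = 0.283). The Adipor1 window had the same mean lengths (3630 bp in WT, 4754 bp in edKO) and the same difference, so this value cannot be credited to Cyb5r1 alone. Of enzymes that take electrons from Por (10 tested, median 0.02), the squalene epoxidase gene Sqle had 2382, 2269 and 1185 bp in WT hearts versus 0, 415 and 1832 bp in edKO. Its genotypes overlapped through edKO 6 (log2 difference -1.63, SE 0.76, limma adjusted p = 0.78). Cyp51, the lanosterol demethylase gene, was at -0.09 (SE 0.11), Cyp46a1 at 0.17 (SE 0.18) and the vitamin D hydroxylase gene Cyp2r1 at 0.37 (SE 0.16).

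Of 48 fatty acid and eicosanoid P450 genes, 33 had no called region in any heart and 10 were tested (median 0.07). The ends of their range were Cyp2u1 (-0.29, SE 0.23), Cyp4v3 (-0.06, SE 0.18), Cyp1a1 (0.24, SE 0.13) and Cyp2j9 (1.01, SE 0.67). Cyp2j9, of a family that makes fatty acid epoxides, had 0, 985 and 946 bp in WT hearts versus 1232, 1033 and 843 bp in edKO, so that WT 1 was the one heart with none.

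Eicosanoid synthesis and desaturase genes (19 tested, median -0.06) ran from the phospholipase gene Pla2g4a (-0.57, SE 0.45) and the cyclooxygenase gene Ptgs1 (-0.44, SE 0.29) to Pla2g6 (0.15, SE 0.12) and the prostaglandin dehydrogenase gene Hpgd (0.46, SE 0.46). Conjugating and NRF2 target genes (27 tested, median 0.04) ran from Gstt1 (-0.76, SE 0.71) and Fmo2 (-0.51, SE 0.35) to Ugt1a6a (0.44, SE 0.32) and the fatty aldehyde dehydrogenase gene Aldh3a2 (0.53, SE 0.15, limma adjusted p = 0.432). Receptors and factors known to control such genes (13 tested, median -0.02) ran from Ppard (-0.37, SE 0.17) and Nr1i3 (-0.17, SE 0.11) to Nr1h2 (0.20, SE 0.10) and Pparg (0.22, SE 0.31). None of these genes passed the threshold.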

How the data were processed

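H3K27ac ChIP-seq was run on 6 hearts, with 6 matched inputs, not used here. The submitters' processing notes name cutadapt, BWA, SAMtools and MACS2, and the builds mm10 and GRCm38. The labels give neither the MACS2 settings nor how inputs were used. The authors deposited 1 narrowPeak list per heart. Its start and end are mm10 coordinates, its signal column is the authors' fold enrichment, a ratio to background, and the deposited −log10 p-value and −log10 q-value give the significance of each peak. Depth is unknown, so no counting interval is given.

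Touching or overlapping entries were merged per heart, and covered bp were summed over each gene body plus 10 kb either side for 21887 genes of the RefSeq table (GRCm38.p6). Values were log2(bp + 200), centred per heart on the mean over loci covered in all 6 hearts, with loci of a mean under 500 bp left out. This scale understates changes at loci with little covered length. Genotype was the only term in limma 3.58.1 (R 4.3.3, trend, robust, Benjamini-Hochberg at 0.05 over 14317 loci), which was tested on simulated data. Merged regions of the 6 lists joined at 1 bp. Python 3.11.15, numpy 2.4.6, pandas 2.3.3 and matplotlib 3.10.9 were used.

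The 4 genes and all lists were chosen with earlier results of these data known. Named are the 4 genes, every protein-coding gene overlapping their windows, the 3 closest patterns per gene (none within 1 Mb), and the 2 lowest and 2 highest tested genes of each functional list. Of 158 listed genes, Cyp2j7 was not matched by symbol. Alternatives were other windows, stricter and equal lists, other scaling, pseudocounts and filters, leaving out each heart, a replicate block and, chosen after seeing the data, marked Xist as a covariate.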

Additional observations from a re-analysis of the deposited data

How the results depend on the processing

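Ephx2 and Por kept a negative difference in all 18 alternatives (from -1.73 to -1.05 and from -0.63 to -0.38), and Cyp4b1 in all 17 that could be fitted (from -0.80 to -0.10; with the gene body alone its mean was under 500 bp). As the genes were chosen from earlier results on the same comparison of genotypes, this is no sign of stability. Ephx1 ran from -0.05 to 0.21, the highest with stricter lists (−log10 q of 5 or more). Leaving out each heart gave -1.73 to -1.29 for Ephx2, -0.77 to -0.62 for Cyp4b1, -0.56 to -0.38 for Por and -0.05 to 0.12 for Ephx1. Equal list length gave -0.10 for Cyp4b1, whose inner regions are then not listed; its genotypes overlapped there and with stricter lists (-0.69, SE 0.56). A pseudocount of 1000 bp gave -1.05 for Ephx2 and -0.39 for Cyp4b1, since it shrinks differences at short covered length. The count of lower loci, 15, was 7 with regions assigned to the nearest gene (with 2 higher), 9 with stricter lists, 6 at equal list length and 3 with marked Xist as a covariate; without one heart it ran from 0 to 9, with 0 to 1 higher. By the heart left out, it was 0 (WT 3), 1 (WT 4), 2 (WT 1), 4 (edKO 3), 8 (edKO 1) and 9 (edKO 6). The cause was not tested. The replicate block gave 90, with 1 residual degree of freedom. Hearts with the same number need not be related, and their deviations correlated at 0.179 (hearts 1) and 0.0316 (hearts 3). Between hearts of different number the values were 0.0678 (WT 1 and edKO 3) and -0.177 (WT 3 and edKO 1), and pairing was not tested. Without centring, the median log2 difference of the other genes of the pathways was -0.054 and that of all loci -0.052. Inside gene bodies alone, 10.9% of Por, 9.82% of Ephx1, 8.14% of Ephx2 and 2.43% of Cyp4b1 were covered in WT hearts, so Por and Ephx1 lay within each other's spread. With stricter lists, 3 regions in place of 2 were called in all WT and no edKO heart. The share over all regions in the genome is not given for these lists, so nothing is read from this count. Unknown depth limits the weakest regions most.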

Other observations

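Chrna2, a nicotinic acetylcholine receptor subunit gene beside Ephx2, held a region of its own beyond the Ephx2 window (chromosome 14, 66147162 to 66148272 in the WT lists together). It covered 1067, 995 and 1005 bp in WT 1, 3 and 4 but 0, 255 and 230 bp in edKO 1, 3 and 6. As at the widest inner Ephx2 region, none was called in edKO 1 and short ones in edKO 3 and 6. The Chrna2 window as a whole had 1976, 1798 and 1810 bp in WT hearts versus 817, 998 and 895 bp in edKO (log2 difference -0.82, SE 0.18), part of it the shared region at the higher-coordinate end of Ephx2. With 25 kb on each side in place of 10 kb, the Ephx2 window takes in this region and held 4276, 3949 and 4768 bp in WT hearts versus 817, 1468 and 1178 bp in edKO. This region was singled out after its values were seen.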
